A study of Mus musculus with 24 samples.

Results

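The comparison described here asked how the difference between the 2 tissues of the mouse lens, epithelium and fiber, changed from E14.5 to P0.5, where E stands for embryonic and P for postnatal day. For each gene the log2 difference fiber minus epithelium at E14.5 was subtracted from the same difference at P0.5, which is an interaction of tissue and stage. It used 12 of the 24 libraries of the study, 3 each of E14.5 epithelium, E14.5 fiber, P0.5 epithelium and P0.5 fiber, and 12427 of the 12611 genes in the count table had enough reads to be tested. The animals were CD1 mice, and the labels name no mutant allele, transgene, agent or pooling. Lenses were cut by hand into epithelium and fiber, and stranded libraries were made from total RNA after removal of ribosomal RNA. The other 12 libraries cover E16.5 and E18.5 in the same way. The labels do not say whether replicates came from separate animals, so the p-values measure only the spread between these libraries, which may be technical.

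The lens is a single-lineage organ wrapped in a basement membrane, the capsule. A monolayer of epithelium covers its front, divides mainly in a band near the equator, pumps ions and water, and feeds cells into the fiber mass, where they elongate, fill with crystallins, lose their organelles and stay for life. The equator faces the ciliary margin of the optic cup, whose pigmented and unpigmented layers border the lens, and in the fetus a net of vessels covers the capsule. Primary fibers come from the back of the lens vesicle, and later fibers are laid over them from the equator.

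Total counts ran from 8970302 to 11731328 in the 6 epithelium libraries and from 13010174 to 21617737 in the 6 fiber libraries. The share of counts in crystallin genes went from 1.91% to 3.70% in epithelium and from 24.5% to 43.2% in fiber over the span (means of 3). The TMM scaling factors moved with this, from 0.817 to 0.869 at E14.5 to 0.563 to 0.580 at P0.5 in fiber, against 1.41 to 1.57 in epithelium. Levels below are CPM, counts per 1e6 reads of the TMM-scaled library size, and are not corrected for gene length. Unless E16.5 or E18.5 is named, statements on the highest or lowest libraries cover the 12 of E14.5 and P0.5. Because of the scaling, CPM values show no share of a library. The tissue labels were checked against markers. The summed level of 22 fiber structure genes was 55877 to 60073 CPM in E14.5 fiber against 7885 to 9230 CPM in E14.5 epithelium, and at P0.5 it was 71022 to 73177 against 9299.8 to 11685 CPM. The summed level of 12 lens epithelium markers was 4769 to 5382 CPM in E14.5 epithelium against 2111 to 2191 CPM in E14.5 fiber. At P0.5 it was 3955 to 4889 against 2668 to 2751 CPM, so the sum separated the tissues less. Taken gene by gene, these 12 markers did not come closer between the tissues. Their median log2 difference, fiber minus epithelium, was -3.51 for E14.5 and -3.96 for P0.5. The interaction was negative in 10 of them and positive in 2. In bulk tissue, fewer cells of a type and less RNA per cell cannot be told apart.

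A gene was called where its interaction had a Benjamini-Hochberg adjusted p under 0.05 in edgeR's quasi-likelihood test, over all genes tested, and a log2 of at least 1 in size. Toward fiber means that the difference fiber minus epithelium became more positive, and toward epithelium that it became more negative. The difference moved toward fiber in 468 genes, 3.77% of those tested, and toward epithelium in 984, 7.92%, so that 32.2% of the 1452 called genes moved toward fiber. That split depended on the scaling. It was 503 against 914 with DESeq2's size factors (35.5% toward fiber). It was 269 against 1490 with crystallins left out of the scaling (15.3%), and 138 against 3260 with library size alone (4.06%). Here and below, leaving crystallins out means scaling by library size without the crystallin counts and with no TMM factors. TMM itself was not run without crystallins. The median interaction over all genes was -0.04 under TMM, -0.01, -0.30 and -0.68 under those 3 scalings in the same order. A change of scaling moves the interactions of all genes by about the same log2. With library size alone most of the gene lists below had more members called toward epithelium. Among them were 15 of 26 proliferation genes, 13 of 19 basement membrane genes and 12 of 19 ion channels and transporters. The member counts of all lists below stand beside the 3.77% toward fiber and 7.92% toward epithelium of all genes.

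The called genes were sorted by whether fiber and epithelium differed, by the same thresholds, at each end. At E14.5, 1736 genes were higher in fiber (14% of those tested) and 2407 lower (19.4%), and at P0.5 there were 2177 (17.5%) and 3043 (24.5%). The tissue difference grew in 988 of the 1452 genes (68.0%), shrank in 304 (20.9%), turned from one tissue to the other in 36 (2.48%) and was called at neither stage in 124 (8.54%). Among the genes moving toward fiber, an excess in fiber grew in 283, of which 114 already had it at E14.5 and 169 gained it. An excess in epithelium shrank in 128, to a smaller excess in 56 and to no called difference in 72. Toward epithelium, an epithelial excess grew in 705 genes, 359 of which had it at E14.5 and 346 of which gained it. A fiber excess shrank in 176, to a smaller one in 71 and to none in 105. The plot of E14.5 against P0.5 differences shows all classes. The classes were made with the same libraries as the call, so their sizes describe the genes and do not test them.

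**Figure D1:**
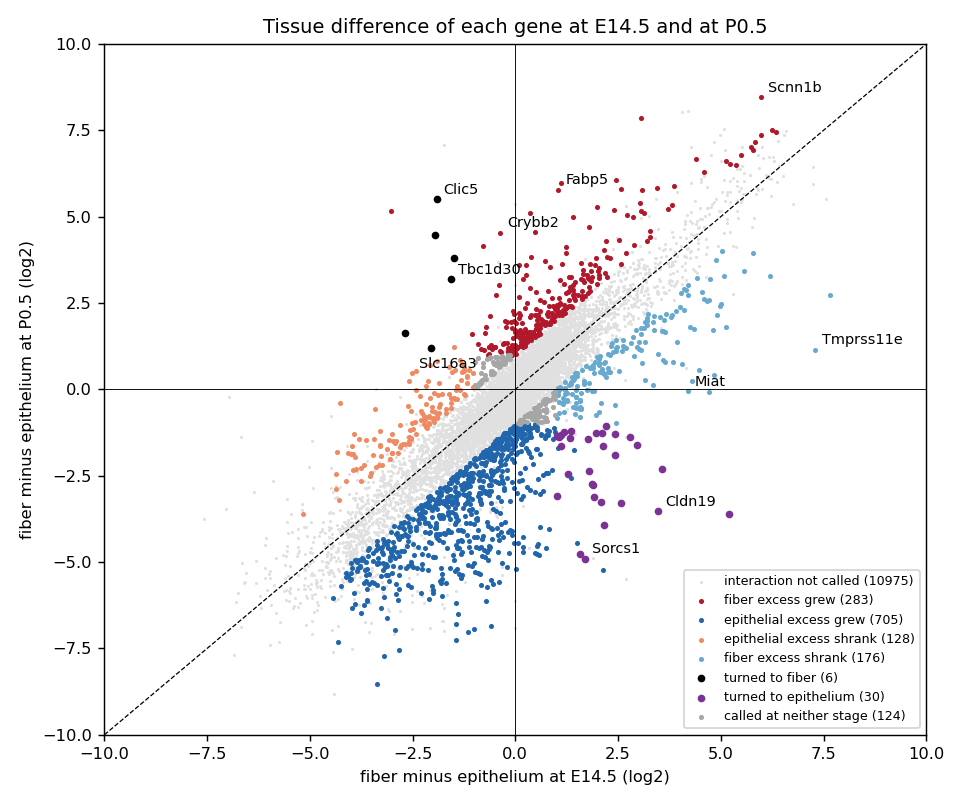
Each point is 1 of the 12427 genes, with its log2 difference fiber minus epithelium at E14.5 on the x axis and at P0.5 on the y axis; the dashed line marks no change, and colours give the class with its number of genes. The 984 genes that moved toward epithelium lie below the line and the 468 that moved toward fiber above it, and the 36 turned genes lie in the upper left and lower right.

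Most called genes had a called change over time in 1 tissue alone. Of the 984 genes moving toward epithelium, 461 (46.8%) rose in epithelium from E14.5 to P0.5 without a call in fiber, 216 (21.95%) fell in fiber without a call in epithelium, and 33 did both. Of the 468 moving toward fiber, 240 (51.3%) rose in fiber alone, 64 (13.7%) fell in epithelium alone and 9 did both. Toward epithelium and toward fiber, 62 and 22 were called the same way in both tissues. A call in neither tissue was found for 212 (21.5%) and 133 (28.4%). A tissue without a call may have changed by less than the thresholds. For scale, over all genes tested 1249 rose (10.1%) and 399 fell (3.21%) in epithelium, and 831 rose (6.69%) and 651 fell (5.24%) in fiber. These 2 time courses are the parts of the interaction itself and stand here as its description.

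The 12 libraries of E16.5 and E18.5 share no sample with the E14.5 and P0.5 libraries, although all 24 share 1 estimate of the spread. Between E16.5 and E18.5 the tissue difference moved toward fiber in 116 genes (0.933% of those tested) and toward epithelium in 541 (4.35%). Of the 468 genes moving toward fiber over the whole span, 408 (87.2%) had the same sign in this middle step, 72 (15.4%) were called in the same direction and 3 in the opposite one. Of the 984 moving toward epithelium, 890 (90.4%) had the same sign, 374 (38.01%) were called in the same direction and 0 in the opposite one. The sign was also shared by 69.7% of the genes without a call, which is the background for the first shares. In the median differences of the genes that grew, shrank or turned toward epithelium, the step from E16.5 to E18.5 was larger than the step before or after it. Over the 4 stages in order, the 30 genes that turned to epithelium had median differences of 1.90, 0.65, -1.86 and -1.77. The 346 that gained an epithelial excess had -0.34, -0.84, -2.07 and -2.08. The 73 that were called at neither end had 0.56, 0.08, -0.39 and -0.69, with no larger middle step.

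**Figure D2:**
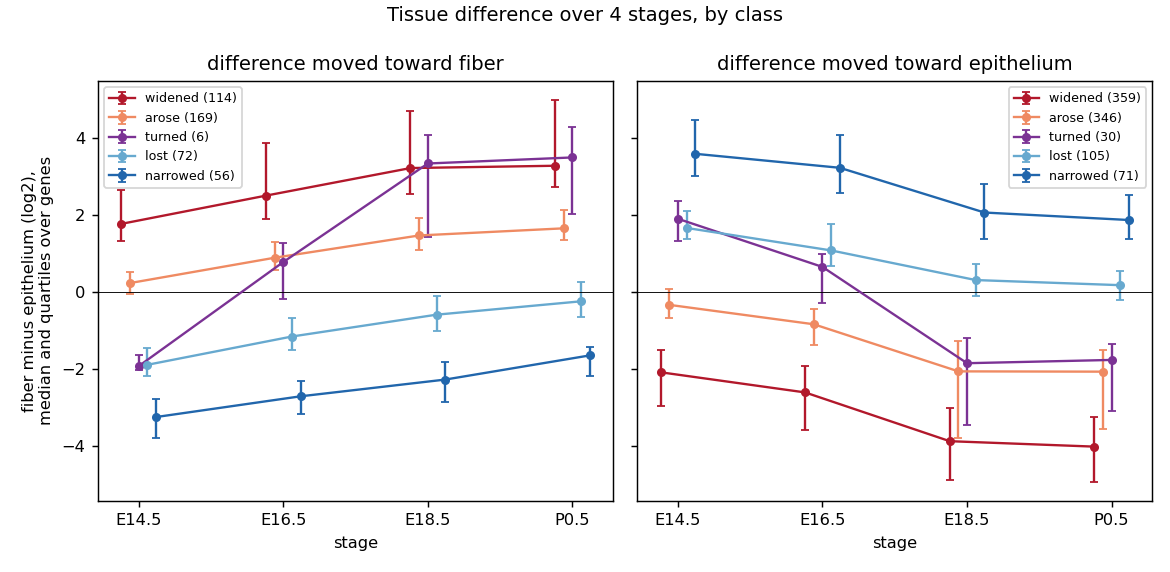
Median and quartiles over genes of the log2 difference fiber minus epithelium at 4 stages, for each class, left for genes moving toward fiber and right for genes moving toward epithelium, with the number of genes in brackets. On the right the median of the 30 turned genes crosses zero between E16.5 (0.65) and E18.5 (-1.86); the classes were chosen from the E14.5 and P0.5 values, and only the E16.5 and E18.5 points are independent of that choice.

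Among genes with a mean of at least 50 CPM in 1 of the 4 groups, the largest movement toward fiber was that of Clic5, a protein of the chloride intracellular channel family that binds the ezrin and actin cortex. Clic5 stood at 0.554, 0.966 and 0.66 CPM in epithelium and 0.0663, 0.28 and 0.253 in fiber at E14.5. The P0.5 values were 1.1, 1.35 and 1.38 in epithelium and 43.8, 51.6 and 80.4 in fiber. It was higher in epithelium at E14.5, where both tissues were near the limit of detection with 32 and 7 reads in all, and the P0.5 fiber libraries lay far above the other 9. The difference fiber minus epithelium went from -1.92 to 5.51, and the interaction was log2 = 7.43 ± 0.77 SE, adjusted p = 9.24e-08. The gene lies at chr17:44188584-44280172 on the plus strand (GENCODE M21, GRCm38, the build also called mm10). The 250 bases before its RefSeq start (GRCm38.p6, chr17:44188322-44188571, plus strand) are shown because they hold both motifs looked for in the promoters. These are the heat shock element core GAANNTTC, first base 164 bases before the start, and the Maf core site TGCTGA, first base 99 bases before it, both in capitals. Heat shock factors and large Maf proteins are the families that bind such letters, and both have lens members.
Clic5: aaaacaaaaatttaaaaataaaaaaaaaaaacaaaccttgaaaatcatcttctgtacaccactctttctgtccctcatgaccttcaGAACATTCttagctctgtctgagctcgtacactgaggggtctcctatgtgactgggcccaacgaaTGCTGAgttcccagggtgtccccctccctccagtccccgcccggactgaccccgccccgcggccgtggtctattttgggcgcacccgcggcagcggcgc

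Clic5 was 1 of 6 genes that turned to fiber. The next by the size of the smaller end was Tbc1d30, a GTPase-activating protein for Rab proteins of vesicle traffic, at 17.3, 15.3 and 17 CPM in epithelium and 6.3, 5.61 and 4.72 in fiber at E14.5. By P0.5 epithelium stood at 10.3, 12 and 9.99 and fiber at 92.2, 62.6 and 142. Its P0.5 fiber libraries were all above the other 9, and the interaction was log2 = 4.76 ± 0.50 SE, adjusted p = 9.80e-08. Piezo2, a channel opened by membrane stretch, stood at 50.7, 42.9 and 47.8 CPM in epithelium and 10.4, 13.6 and 10.1 in fiber at E14.5. P0.5 epithelium had 22.4, 19 and 20.4 and P0.5 fiber 56, 57.4 and 28. Its level fell in epithelium and rose in fiber, and 2 of the P0.5 fiber libraries were above all E14.5 epithelium libraries (log2 = 3.26 ± 0.27 SE, adjusted p = 3.12e-09). The other 3 stayed under 10 CPM in every group of the comparison.

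The crystallins are the soluble proteins that give the fiber cytoplasm its refractive index, alpha crystallins being small heat shock proteins and beta and gamma crystallins a second fold family. Of 16 tested, 7 moved toward fiber and 0 toward epithelium, and the median interaction was 0.85 against -0.04 over all genes (0.21 against -0.68 with library size alone, where 3 of the 16 were called). They did not move as 1 block. Crybb2, a beta crystallin, gained the largest excess of the list. It stood at 4.35, 4.21 and 4.86 CPM in epithelium and 3.25, 3.55 and 3.63 in fiber at E14.5. Epithelium was then at 54.8, 91.2 and 108 and fiber at 2157, 1175 and 2603 at P0.5. At E14.5 it was as low in fiber as in epithelium, and the P0.5 fiber libraries were above the other 9. It rose in both tissues, by a log2 of 4.24 in epithelium and 9.16 in fiber, and the interaction was log2 = 4.92 ± 0.73 SE, adjusted p = 1.19e-05.

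Crygs, the gamma crystallin of later-born fibers, stood at 33.6, 42.4 and 39.3 CPM in epithelium and 227, 233 and 227 in fiber at E14.5. In the P0.5 libraries it was 74.8, 136 and 161 in epithelium and 6282, 6338 and 8243 in fiber. All P0.5 fiber libraries were above the other 9 by more than an order of magnitude, and the difference widened from 2.57 to 5.81 (log2 = 3.24 ± 0.30 SE, adjusted p = 2.13e-08). Cryab, the broadly expressed alpha crystallin, did not differ between the tissues at E14.5 (-0.05) and was higher in fiber by 2.28 at P0.5, both on the log2 scale. It stood at 646, 926 and 670.4 CPM in epithelium and 662, 727 and 771 in fiber at E14.5. The P0.5 libraries gave 2279, 2979 and 3539.7 in epithelium and 13391, 12281 and 17072 in fiber. Both tissues rose and the fiber libraries rose further (log2 = 2.33 ± 0.21 SE, adjusted p = 9.07e-09). The other alpha crystallin, Cryaa, had an interaction of 0.3 and was not called. Cryga, Crygc, Crygd and Cryge, already far higher in fiber at E14.5, widened by a log2 of 1.28, 1.3, 1.11 and 1.37. These genes are close copies of each other in a cluster, and the sources used here do not state how reads shared between them were counted, so their separate values are uncertain. Crygd was not called without P0.5 epithelium replicate 1 (0.86, adjusted p = 0.00748). With library size alone none of these 4 was called (0.47 to 0.72).

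The 250 bases before the start of Crygs are shown as the counterpart of the Clic5 promoter, from a gene that had its fiber excess from the first stage (RefSeq, GRCm38.p6, chr16:22811411-22811660, minus strand). The capitals mark the 1 Maf core site, read on the opposite strand as TCAGCA, 200 bases before the start; the heat shock core was not found in this window.
Crygs: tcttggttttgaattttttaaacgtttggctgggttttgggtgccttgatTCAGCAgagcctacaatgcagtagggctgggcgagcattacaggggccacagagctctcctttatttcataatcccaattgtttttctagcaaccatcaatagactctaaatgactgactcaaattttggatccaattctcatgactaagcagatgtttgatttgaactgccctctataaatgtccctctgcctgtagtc

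Both motifs were searched on both strands in windows of 300 bases, 250 before and 50 after the start, for the 9558 tested genes that the RefSeq table holds, which is under 80% of the genes tested, so the shares describe those promoters alone. TGCTGA was in 1401 of them (14.7%), in 35 of 218 genes whose fiber excess grew (16.1%) and in 79 of 505 whose epithelial excess grew (15.6%). GAANNTTC was in 532 (5.57%), in 18 of the 218 (8.26%) and in 32 of the 505 (6.34%). Differences between the shares were not tested, and a match is a string of letters, not a bound site.

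Outside the crystallins, the named genes with a growing fiber excess had various roles. Fabp5, a carrier of fatty acids, stood at 9.1, 8.97 and 8.76 CPM in epithelium and 17.8, 19.6 and 17.8 in fiber at E14.5. The levels at P0.5 were 17.3, 18.8 and 16.4 in epithelium and 959, 818 and 1114 in fiber. Its P0.5 fiber level stood apart from 3 other groups that were all under 20 CPM, and the difference widened from 1.04 to 5.78 (log2 = 4.75 ± 0.32 SE, adjusted p = 1.43e-10). Pcdh17, a protocadherin of cell contacts, moved in opposite directions. It stood at 16.9, 11.4 and 16.4 CPM in epithelium and 9.28, 8.22 and 8.18 in fiber at E14.5. At P0.5 epithelium had 6.38, 5.7 and 4.14 and fiber 108, 104 and 72.7. It fell in epithelium and rose in fiber, so that fiber was slightly below epithelium at E14.5 and far above it at P0.5 (log2 = 4.94 ± 0.27 SE, adjusted p = 5.45e-12). Rnf165, a ubiquitin ligase that acts in BMP signalling, stood at 24.7, 24.4 and 26.2 CPM in epithelium and 26.2, 32 and 28.2 in fiber at E14.5. The P0.5 values were 9.47, 13.3 and 8.5 in epithelium and 102, 89.4 and 92.8 in fiber. It had the same pattern, from similar levels at E14.5 (log2 = 2.997 ± 0.19 SE, adjusted p = 3.70e-11).

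Trpc6, a calcium-permeable channel, differed from these because fiber stayed level. Trpc6 stood at 116, 83.6 and 93 CPM in epithelium and 161, 198 and 166 in fiber at E14.5. By P0.5 epithelium stood at 17.5, 16.1 and 15.8 and fiber at 191, 187 and 195. The fiber libraries of both stages overlap and the P0.5 epithelium libraries lie far below the rest, with an epithelial change of -2.57 and a fiber change of 0.13 (log2 = 2.69 ± 0.22 SE, adjusted p = 1.92e-09). Trafd1, a feedback inhibitor of innate immune signalling, stood at 15.8, 14 and 15.5 CPM in epithelium and 19.6, 20.8 and 18.2 in fiber at E14.5. P0.5 epithelium had 20.3, 19 and 17.2 and P0.5 fiber 138, 133 and 158. Its P0.5 fiber libraries were above the other 9, which were at most 20.8 CPM (log2 = 2.56 ± 0.13 SE, adjusted p = 1.34e-12). The excess also widened for Zfyve28, an endosomal protein that limits growth factor receptor signalling (3.3), Trex1, a DNA exonuclease (2.89), Spns2, which exports sphingosine 1-phosphate (2.73), and Rnf113a1, a RING finger protein (2.36). Rnf113a1 fell in epithelium and rose in fiber, and the first 3 rose in fiber alone.

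Of 22 fiber structure genes, 3 moved toward fiber and 0 toward epithelium, beside 3.77% and 7.92% of all genes, with a median of 0.36. With library size alone the median was -0.28, with 2 called toward fiber and 3 toward epithelium. The list covers the beaded filament, junctions and membrane proteins of fibers and also holds Hspb1, which is none of these. Bfsp1, filensin of the beaded filament, stood at 37.8, 46.7 and 41.8 CPM in epithelium and 2089, 2607 and 2286 in fiber at E14.5. Epithelium was then at 68.7, 96.6 and 78.7 and fiber at 9745, 9461 and 10481 at P0.5. Fiber was far above epithelium at both stages (log2 = 1.14 ± 0.20 SE, adjusted p = 9.14e-05), and with crystallins left out of the scaling or with library size alone it was not called (0.88 and 0.50). Epha2, an Eph receptor that orders fiber cell packing, stood at 54.6, 54.8 and 56.7 CPM in epithelium and 73.8, 84.8 and 76.6 in fiber at E14.5. In the P0.5 libraries it was 27.1, 31.7 and 38.5 in epithelium and 147, 134 and 204 in fiber. Each P0.5 epithelium library was below the E14.5 ones and each P0.5 fiber library above them (log2 = 1.81 ± 0.19 SE, adjusted p = 7.88e-08). Hspb1, a small heat shock protein, was under 1 CPM in 9 libraries and at 23.8, 18.8 and 18.2 CPM in P0.5 fiber (log2 = 2.79 ± 0.94 SE, adjusted p = 0.0204); without E14.5 epithelium replicate 3 it was not called (2.22, adjusted p = 0.225). Lgsn, lengsin, had the largest estimate of the list, rested on 5 reads in each E14.5 group and was not called (log2 = 4.6 ± 3.50 SE, adjusted p = 0.305). Its P0.5 fiber libraries had 13.4, 33.6 and 17.1 CPM.

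Of 21 lens transcription factors tested, 2 moved toward fiber and 2 toward epithelium, beside 3.77% and 7.92% of all genes, with a median of 0.40 (-0.23 with library size alone). Sox1, a SoxB1 factor needed for fiber elongation, stood at 208, 214 and 228 CPM in epithelium and 512, 533 and 551 in fiber at E14.5. The P0.5 libraries gave 126, 126 and 122 in epithelium and 616, 619 and 770.5 in fiber. Its fiber excess widened from 1.3 to 2.43 (log2 = 1.13 ± 0.10 SE, adjusted p = 9.42e-09). It was not called with crystallins left out of the scaling (0.87) or with library size alone (0.48). Sall4, a stem cell zinc finger factor, went from 15.5, 12.8 and 18.8 CPM in E14.5 epithelium and 6.3, 4.77 and 5.65 in E14.5 fiber to under 1 CPM in all P0.5 libraries, and the interaction (log2 = 2.73 ± 0.75 SE, adjusted p = 0.00524) rests on 6 reads in P0.5 epithelium. Six6, a homeobox gene of eye and retina, rose in epithelium from 1.5, 3.8 and 1.56 to 40.5, 39 and 28.6 CPM (log2 = -4.08 ± 0.90 SE, adjusted p = 0.000877), and Sox11, a SoxC factor, fell in fiber from 19.8, 15.8 and 17.6 to 6.08, 6.7 and 4.83 CPM (log2 = -1.29 ± 0.31 SE, adjusted p = 0.00184). Pax6, Prox1, Maf, Hsf4, Foxe3 and Pitx3, which set lens fate and crystallin expression, had interactions of -0.61, 0.62, 0.58, 0.48, -0.67 and 0.9 and were not called.

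**Figure D3:**
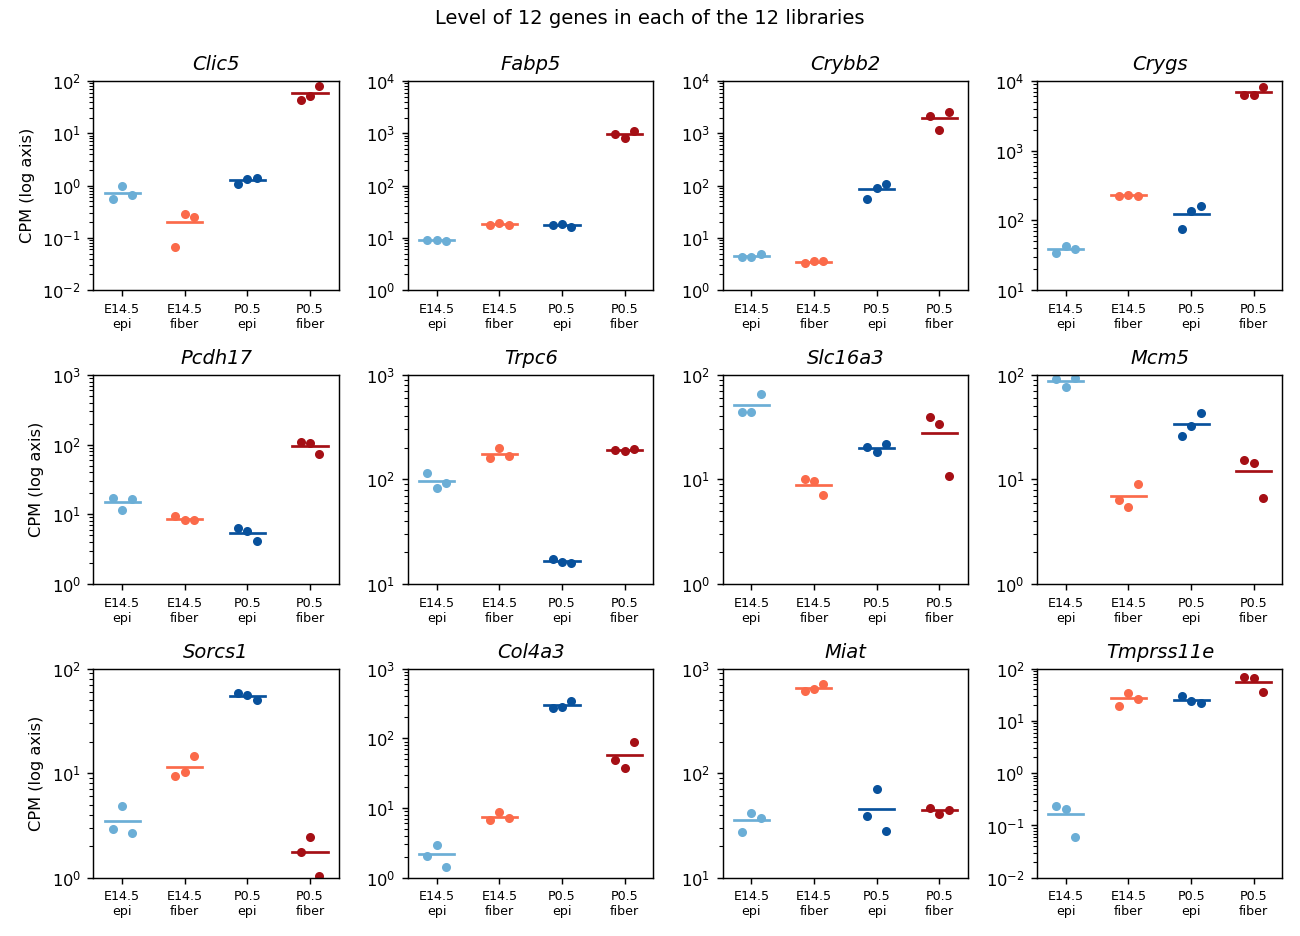
CPM on a log axis of 12 genes in each of the 12 libraries, as points, with a bar at the mean of 3; the y range differs between panels. Clic5, Fabp5, Crybb2, Crygs and Pcdh17 stand out in P0.5 fiber, Trpc6 drops in P0.5 epithelium, Sorcs1, Col4a3 and Tmprss11e are raised in P0.5 epithelium, and Miat is high in E14.5 fiber alone.

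The other route toward fiber was a shrinking epithelial excess, in 128 genes. Slc16a3, the monocarboxylate carrier MCT4 that exports lactate, stood at 44.4, 44.5 and 65.1 CPM in epithelium and 10.009, 9.63 and 7.17 in fiber at E14.5. The levels at P0.5 were 20.2, 18.3 and 22 in epithelium and 39.4, 33.7 and 10.8 in fiber. P0.5 fiber replicate 3 lay at the E14.5 fiber level while the other 2 lay above P0.5 epithelium, and the difference went from -2.52 to 0.47 (log2 = 2.99 ± 0.37 SE, adjusted p = 1.27e-06). The gene remained called when each library was left out in turn. The same library was lowest for Ldha, lactate dehydrogenase A, at 174, 166 and 45.6 CPM in P0.5 fiber against 77.2, 63.6 and 61 in E14.5 fiber (log2 = 1.6 ± 0.37 SE, adjusted p = 0.00124), and for Zbtb8b, a BTB zinc finger gene, at 169.5, 172 and 71.4 CPM (log2 = 2.25 ± 0.29 SE, adjusted p = 1.57e-06).

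Wls, the carrier that brings Wnt ligands to the cell surface, stood at 90.6, 114 and 88.9 CPM in epithelium and 26.9, 23.3 and 24.4 in fiber at E14.5. At P0.5 epithelium had 112, 121 and 116 and fiber 95.3, 87.9 and 145. It lost its epithelial excess by rising in fiber, and the P0.5 libraries of both tissues overlap (log2 = 1.88 ± 0.17 SE, adjusted p = 1.62e-08). Ahnak, a very large scaffold protein of the membrane, stood at 144, 163 and 124 CPM in epithelium and 34.2, 31.3 and 29 in fiber at E14.5. The P0.5 values were 405, 379.7 and 367 in epithelium and 239, 192 and 432 in fiber. It rose in both tissues and further in fiber (log2 = 1.77 ± 0.29 SE, adjusted p = 4.00e-05). Peg10, a paternally expressed gene derived from a retrotransposon, stood at 83.9, 55.2 and 72.7 CPM in epithelium and 15.2, 15.3 and 11.6 in fiber at E14.5. By P0.5 epithelium stood at 12.1, 8.52 and 7.61 and fiber at 8.74, 9.66 and 6.09. It lost its excess the other way, by falling in epithelium (log2 = 2.14 ± 0.27 SE, adjusted p = 1.65e-06). A smaller excess was left for Gabrg3, a GABA-A receptor subunit (-3.3 to -1.62), Tpm4, a tropomyosin (-2.9 to -1.49), Bmp7, a ligand of lens induction (-3.27 to -1.93) and Adgrb2, an adhesion receptor (-2.23 to -1.01). The last 3 were not called with library size alone (0.78, 0.70 and 0.59), nor was Adgrb2 with crystallins left out (0.98).

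Among 26 proliferation genes 2 moved toward fiber and 3 toward epithelium, beside 3.77% and 7.92% of all genes, and the median was -0.47. Mcm5, a subunit of the replicative helicase, stood at 90.7, 76.6 and 93.3 CPM in epithelium and 6.36, 5.42 and 9.11 in fiber at E14.5. P0.5 epithelium had 25.8, 32.5 and 42.8 and P0.5 fiber 15.3, 14.4 and 6.61. Epithelium fell, 2 of the P0.5 fiber libraries were above those of E14.5, and the excess narrowed from -3.64 to -1.48 (log2 = 2.16 ± 0.29 SE, adjusted p = 3.38e-06). Mcm2, Mcm3 and Mcm6 of the same ring had -0.07, -0.48 and -0.76 and were not called. Bub1, a kinase of the mitotic checkpoint, went the other way, because it fell further in fiber, from 4.71, 4.39 and 4.3 to 0.76, 0.798 and 0.21 CPM, than in epithelium, from 76.5, 70.8 and 71.2 to 28, 26.4 and 29.8 CPM (log2 = -1.51 ± 0.30 SE, adjusted p = 0.000382). Cdk1, the kinase of mitotic entry, had -1.14, or -0.90 without P0.5 fiber replicate 3, and Rrm2, which makes deoxynucleotides, had -1.32. Aurka, a spindle kinase, had 1.05. Mki67 and Top2a, the usual markers of dividing cells, had -0.69 and -0.9 and were not called.

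Of 13 cell cycle inhibitors and D cyclins tested, 3 moved toward fiber and 0 toward epithelium, beside 3.77% and 7.92% of all genes. The median was -0.04. Cdkn2c, the inhibitor p18, rose in fiber from 0.53, 0.748 and 1.01 to 3.17, 3.67 and 4.62 CPM while epithelium stood at 12.3, 10.8 and 13.3 and then 12.4, 15 and 15.2 CPM (log2 = 2.12 ± 0.30 SE, adjusted p = 5.09e-06). Ccng1, cyclin G1, had 1.06. Cdkn2b, the inhibitor p15, was at most 1.16 CPM on average in any group, and its value of 2.83 became 2.01 (adjusted p = 0.167) without P0.5 fiber replicate 3. Cdkn1b and Cdkn1c, the inhibitors p27 and p57 that mark cells leaving the cycle for fiber fate, had -0.28 and -0.25 and were not called.

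Toward epithelium the largest interaction among genes with a mean of at least 50 CPM in 1 of the 4 groups was that of Sorcs1, a sorting receptor of the Vps10 family. Sorcs1 (chr19:50143299-50678646) stood at 2.93, 4.9 and 2.7 CPM in epithelium and 9.41, 10.2 and 14.7 in fiber at E14.5. Epithelium was then at 58.7, 55.7 and 50.2 and fiber at 1.77, 2.47 and 1.05 at P0.5. Fiber was above epithelium at E14.5 and far below it at P0.5, with no overlap of the groups at either stage (log2 = -6.6 ± 0.53 SE, adjusted p = 1.94e-09). The type IX collagens, fibril-associated collagens of cartilage and vitreous that ciliary epithelium also makes, moved together in all 3 chains. Col9a2 stood at 1.42, 2.35 and 2.22 CPM in epithelium and 7.42, 4.58 and 5.99 in fiber at E14.5. In the P0.5 libraries it was 80.6, 69.9 and 69.4 in epithelium and 2.28, 3.11 and 2.52 in fiber. The interaction of Col9a2 was -6.35 (adjusted p = 3.49e-09), Col9a3 had an interaction of -5.33 and Col9a1 one of -3.81. Each of the 3 had its P0.5 epithelium libraries far above the other 9 of E14.5 and P0.5. The epithelial mean was already 69.2 CPM for Col9a2 at E18.5 against 4.52 CPM at E16.5, where the standard deviation of the libraries was 4.16 CPM.

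Another 5 of the named genes rose in epithelium. Reln, the secreted glycoprotein reelin, stood at 4.83, 14.1 and 4.8 CPM in epithelium and 6.56, 5.14 and 6.24 in fiber at E14.5. The P0.5 libraries gave 445, 373 and 403 in epithelium and 4.81, 13.4 and 5.77 in fiber. Of the 12 libraries, those of P0.5 epithelium alone were above 15 CPM (log2 = -5.19 ± 0.76 SE, adjusted p = 9.29e-06). Ntrk2, the receptor TrkB for BDNF, stood at 6.49, 7.32 and 6.78 CPM in epithelium and 9.35, 10.7 and 11.1 in fiber at E14.5. The levels at P0.5 were 78.9, 66.9 and 61.9 in epithelium and 1.27, 4.23 and 1.26 in fiber. It rose in epithelium and fell in fiber (log2 = -5.39 ± 0.44 SE, adjusted p = 2.78e-09). Gria1, an AMPA receptor subunit, Slc4a5, a sodium bicarbonate cotransporter, and Cldn1, a claudin of tight junctions, had interactions of -5.23, -4.54 and -4.5. In all 5 the P0.5 epithelium libraries exceeded the other 9, and their epithelial means at E16.5 were 17.8, 9.42, 5.5, 4.47 and 6.94 CPM against 306, 75.2, 71.1, 71.7 and 62.1 CPM at E18.5. The 3 epithelium libraries of E16.5 were uneven, with standard deviations of 15.3, 5.48, 6.03, 3.17 and 4.92 CPM in the same order. Col23a1, a transmembrane collagen, already had an epithelial excess and widened it, rising in epithelium from 27.4, 17.5 and 20.4 to 161, 143 and 121 CPM and falling in fiber from 9.61, 10.1 and 9.44 to 3.04, 5.59 and 3.46 CPM (log2 = -3.92 ± 0.30 SE, adjusted p = 1.06e-09). E14.5 epithelium replicate 2 was the highest of its group for Reln, Gria1, Cldn1, Zic1 and Rax, and P0.5 fiber replicate 2 was the highest of its group for Reln, Ntrk2, Cldn1 and Col9a1.

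Markers of the ciliary margin and retina moved with these genes. Of 16 such markers 13 were tested, 7 moved toward epithelium and 0 toward fiber, and the median was -3.35. Their summed level was 74.7 to 108 CPM in E14.5 epithelium, 104 to 185 at E16.5, 833 to 1070.1 at E18.5 and 761 to 926 at P0.5, while in fiber it was 24.2 to 32.8 CPM at E14.5 and 47.0 to 69.7 at P0.5, and no tested marker was at 0 in a whole group. Zic1, a zinc finger factor, rose in epithelium from 2.53, 8.76 and 3.6 to 149.8, 119 and 101 CPM (log2 = -3.81 ± 1.01 SE, adjusted p = 0.00402), and Zic2, its relative, from 0.554, 4.14 and 2.28 to 56.4, 55.9 and 45.5 CPM (log2 = -3.7 ± 1.25 SE, adjusted p = 0.0208). Without E14.5 fiber replicate 1 these 2 were not called (-3.40, adjusted p = 0.0587, and -3.27, adjusted p = 0.146). Rax, a homeobox gene of the eye field, and Rlbp1, a retinoid carrier of ciliary and glial cells, had -3.43 and -3.9. Crx and Otx2, factors of photoreceptors, had -2.27 and -0.34 and were not called. Rcvrn, recoverin, was called at -1.63 from a fiber excess that narrowed.

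Pigment cell markers moved likewise: 8 of 11 were tested, 5 moved toward epithelium and 0 toward fiber, with a median of -3.16. Their sum in epithelium was 42.7 to 45.5 CPM at E14.5, 37.2 to 42.7 at E16.5, 233 to 267 at E18.5 and 129 to 244 at P0.5. In fiber the sum was 88.4 to 95.1, 92.0 to 114, 89.8 to 97.5 and 94.5 to 114 CPM in the same order. It was thus above epithelium at E14.5 and E16.5. Mitf made up most of the fiber sum, at 82.2 to 92.1 CPM at E14.5 and 89.8 to 109 CPM at P0.5. Tyrp1, an enzyme of melanin synthesis, stood at 1.35, 0.483 and 0.3 CPM in epithelium and 0.199, 0.187 and 0.337 in fiber at E14.5. At P0.5 epithelium had 53.2, 45.5 and 26.6 and fiber 0.506, 0.638 and 0.525. Its levels were low in all groups but P0.5 epithelium (log2 = -4.73 ± 1.31 SE, adjusted p = 0.00558). Pmel, the fibril protein of the melanosome, stood at 5.38, 2.35 and 2.4 CPM in epithelium and 2.59, 1.12 and 1.52 in fiber at E14.5. The P0.5 values were 54.8, 51.4 and 23.2 in epithelium and 2.03, 1.44 and 2.1 in fiber. The pattern was that of Tyrp1 (log2 = -3.72 ± 0.70 SE, adjusted p = 0.000176). P0.5 epithelium replicate 3 was the lowest of its group for both and for Dct, a further enzyme of the pathway, at 27.8, 29 and 11 CPM (log2 = -4.31 ± 0.93 SE, adjusted p = 0.000719). Tyr, tyrosinase, stood at 1.5, 0.621 and 0.12 CPM in E14.5 epithelium and 12.9, 11.9 and 3.75 in P0.5 epithelium, and P0.5 fiber held 2 reads of it in 3 libraries, so no size is given. Mitf, the master factor of pigment cells, stood at 4.75, 4.42 and 3.96 CPM in epithelium and 82.2, 92.1 and 90.4 in fiber at E14.5. By P0.5 epithelium stood at 34.5, 31.8 and 20.7 and fiber at 89.8, 90.5 and 109. Unlike the others it was higher in fiber at both stages, and it rose in epithelium alone (log2 = -2.6 ± 0.23 SE, adjusted p = 9.41e-09). Whether cells of the ciliary margin or pigment layer in the epithelium samples account for these genes was not tested.

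**Figure D4:**
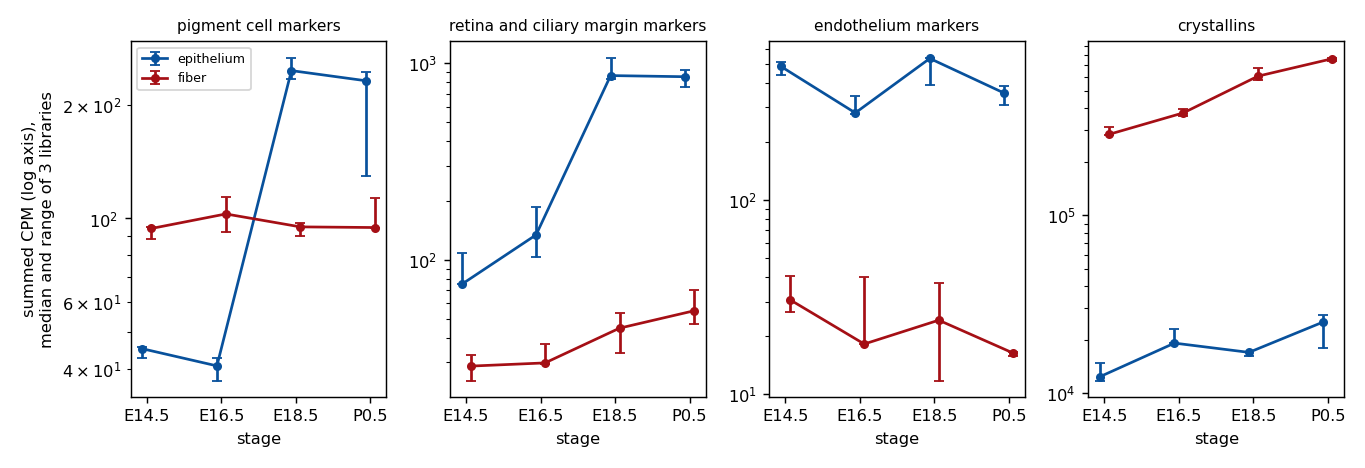
Summed CPM on a log axis of 4 gene lists over the 4 stages, as median and range of 3 libraries, blue for epithelium and red for fiber. Pigment and ciliary margin sums step up in epithelium between E16.5 (37.2 to 42.7 and 104 to 185) and E18.5 (233 to 267 and 833 to 1070.1), the endothelial sum goes from 276 to 343 to 391 to 541 over that interval, and the crystallin sum in fiber is higher at each later stage.

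Aqp1, the water channel of lens epithelium and also of ciliary epithelium, was 1 of 3 among 12 lens epithelium markers that moved toward epithelium, with 0 the other way and a median of -0.67. It stood at 2.22, 2.35 and 2.16 CPM in epithelium and 0.729, 0.467 and 0.843 in fiber at E14.5. P0.5 epithelium had 52.4, 46.6 and 53 and P0.5 fiber 0.633, 1.6 and 0.63. The P0.5 epithelium libraries were the only ones of the 12 above 3 CPM, and the mean of E18.5 epithelium was 49.6 CPM (log2 = -3.93 ± 0.55 SE, adjusted p = 5.01e-06). Gja1, connexin 43 of epithelial gap junctions, widened its excess by rising in epithelium from 172, 186 and 182 to 714, 630.0 and 442 CPM (log2 = -1.32 ± 0.30 SE, adjusted p = 0.00119), and Fzd2, a Wnt receptor, had -1.02. Foxe3, Cdh1 and Pdgfra, which define the lens epithelium itself, had -0.67, -0.66 and -0.72 and were not called.

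In all, 30 genes turned to epithelium, 22 of them by a rise in epithelium alone. Cldn19, a claudin of ciliary and renal epithelia, stood at 0.237, 0.414 and 0.24 CPM in epithelium and 2.92, 2.9 and 4.47 in fiber at E14.5. Epithelium was then at 23.3, 22.2 and 22.5 and fiber at 1.39, 2.31 and 1.99 at P0.5. Among the turned genes above 10 CPM it ranked first by the smaller of its E14.5 and P0.5 differences (log2 = -7.01 ± 0.43 SE, adjusted p = 2.41e-11). Prelp, a proteoglycan of basement membranes, stood at 0.237, 0.138 and 0.12 CPM in epithelium and 0.729, 0.748 and 0.759 in fiber at E14.5. In the P0.5 libraries it was 13.6, 8.9 and 17.3 in epithelium and 0.886, 1.12 and 0.525 in fiber. Its E14.5 epithelium value rests on 7 reads in all (log2 = -6.08 ± 0.70 SE, adjusted p = 4.06e-07). Fam129a, also called Niban, stood at 0.792, 1.31 and 1.02 CPM in epithelium and 4.18, 5.05 and 4.3 in fiber at E14.5. The P0.5 libraries gave 64.9, 58.2 and 49.5 in epithelium and 6.46, 5.11 and 6.82 in fiber. It rose in epithelium alone (log2 = -5.33 ± 0.32 SE, adjusted p = 1.56e-11). Smpd3, a neutral sphingomyelinase, and Epb41l4b, a FERM domain protein, had -4.64 and -4.33, and Epb41l4b also fell in fiber. In each of these 5 the 3 fiber libraries were above the 3 epithelium libraries at E14.5 and below them at P0.5.

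The capsule is built from type IV collagen, laminins, nidogens and proteoglycans. Of 19 such genes 0 moved toward fiber and 2 toward epithelium, beside 3.77% and 7.92% of all genes, with a median of -0.59. Col18a1, whose fragment is endostatin, rose in epithelium from 114, 103 and 111 to 344, 274 and 324 CPM and stood at 13.3, 12.1 and 15.1 and then 10.002, 13.3 and 12.9 CPM in fiber (log2 = -1.67 ± 0.29 SE, adjusted p = 7.17e-05). Col4a3, the alpha 3 chain that assembles with alpha 4 and alpha 5 in mature basement membranes, stood at 2.06, 2.97 and 1.44 CPM in epithelium and 6.63, 8.78 and 7.08 in fiber at E14.5. The levels at P0.5 were 272, 283 and 345 in epithelium and 49.3, 37.7 and 87.3 in fiber. The tissue difference turned, from 1.8 to -2.38. It rose in both tissues, by a log2 of 7.13 in epithelium and 2.96 in fiber (log2 = -4.17 ± 0.46 SE, adjusted p = 1.84e-07). Col4a4, its partner, stood at 0.633, 2.14 and 0.18 CPM in epithelium and 0.597, 0.654 and 0.253 in fiber at E14.5. At P0.5 epithelium had 361, 363 and 451 and fiber 49, 34.5 and 100.5. Both E14.5 groups rest on few reads, 42 in epithelium and 19 in fiber, and the interaction was not called (log2 = -1.77 ± 1.40 SE, adjusted p = 0.326). Col4a1 and Col4a2, the chains of the embryonic network, had -0.59 and -0.62 and were not called.

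The genes Col4a3 and Col4a4 lie head to head. The 71 bases between their GENCODE M21 starts (GRCm38.p6, chr1:82586850-82586920, read on the minus strand from Col4a4 to Col4a3) are shown. They were chosen because both genes were under 10 CPM in all E14.5 libraries and above 30 CPM in all P0.5 libraries. That held in both tissues, on either side of this 1 stretch. Neither of the motifs above is in it, so all letters are in lower case.
Col4a4 to Col4a3: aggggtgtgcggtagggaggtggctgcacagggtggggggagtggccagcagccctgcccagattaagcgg

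The remaining route was a fiber excess that shrank, in 176 genes. Tmprss11e, a membrane-bound serine protease (chr5:86705186-86745815), stood at 0.237, 0.207 and 0.06 CPM in epithelium and 19.5, 34.3 and 26.8 in fiber at E14.5. The P0.5 values were 30.5, 24 and 22.2 in epithelium and 68.1, 65.8 and 36.2 in fiber. It rose in both tissues, in epithelium from 7 reads in all, and the difference narrowed from 7.29 to 1.15 (log2 = -6.14 ± 0.69 SE, adjusted p = 2.90e-07). Rbp3, the retinoid-binding protein of the space around photoreceptors, stood at 2.06, 1.79 and 1.68 CPM in epithelium and 58.6, 73.5 and 59.9 in fiber at E14.5. By P0.5 epithelium stood at 6.31, 8.9 and 5.24 and fiber at 28.7, 24.4 and 17.8. It fell in fiber and rose in epithelium (log2 = -3.32 ± 0.47 SE, adjusted p = 6.91e-06). Hopx, an atypical homeodomain protein, had -2.92, rising in both tissues and further in epithelium, and Grik3, a kainate receptor subunit, had -2.74, rising in epithelium alone.

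Miat, a long noncoding RNA (chr5:112213228-112229395), lost its fiber excess through fiber. It stood at 27.4, 42 and 37 CPM in epithelium and 609, 642 and 708 in fiber at E14.5. P0.5 epithelium had 38.7, 70.5 and 27.9 and P0.5 fiber 46.8, 40.9 and 44.5. Only the E14.5 fiber libraries stood apart, and the P0.5 libraries of both tissues overlap (log2 = -4.25 ± 0.36 SE, adjusted p = 3.95e-09). Its fiber mean was 305 CPM at E16.5 and 61 CPM at E18.5. It was the only 1 called of 10 long noncoding RNAs tested, whose median was 0.28. Fam43a lost its excess in the same way, at 52.6, 55.8 and 44.3 CPM in E14.5 fiber and 7.09, 7.02 and 11.1 in P0.5 fiber (log2 = -1.7 ± 0.19 SE, adjusted p = 2.37e-07). Cacna1d and Cacna1a, pore subunits of voltage-gated calcium channels, lost theirs because epithelium rose. In Rnf152, a lysosomal ubiquitin ligase, epithelium rose too, and a fiber excess of 0.86 was left, under the log2 of 1 needed for a call. Cacna1d stood at 10.6, 18.6 and 16.7 CPM in epithelium and 62.4, 66.8 and 68 in fiber at E14.5. Epithelium was then at 107, 86 and 87 and fiber at 66, 64.7 and 81.2 at P0.5. Its E14.5 epithelium libraries were the lowest 3 of the 12 (log2 = -2.49 ± 0.24 SE, adjusted p = 3.62e-08), and Rnf152 and Cacna1a had -2.73 and -1.96.

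Ion channels and transporters, with 19 of 24 tested, had 1 gene moving toward fiber and 3 toward epithelium, beside 3.77% and 7.92% of all genes. Their median was -0.90. Scnn1b, the beta subunit of the epithelial sodium channel, stood at 2.22, 2.48 and 2.94 CPM in epithelium and 151, 171 and 166 in fiber at E14.5. In the P0.5 libraries it was 0.0644, 0.32 and 0.11 in epithelium and 65.5, 60.3 and 55.7 in fiber. It fell in both tissues and further in epithelium (log2 = 2.48 ± 0.50 SE, adjusted p = 0.000364). The P0.5 epithelium libraries were near the limit of detection, so the size of the epithelial fall and of the interaction is limited by depth. Atp1b1, a beta subunit of the sodium pump, which drives the lens circulation, stood at 1.42, 2.001 and 3 CPM in epithelium and 12.7, 11.8 and 11.2 in fiber at E14.5. The P0.5 libraries gave 12.6, 12.1 and 12.9 in epithelium and 10.6, 8.62 and 8.4 in fiber. It lost its fiber excess because epithelium rose (log2 = -2.89 ± 0.25 SE, adjusted p = 7.59e-09). Trpm1, a channel of melanocytes and retinal bipolar cells, had -1.52.

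Signalling pathways of the lens were counted beside the 3.77% and 7.92% of all genes that moved toward fiber and toward epithelium. FGF drives fiber differentiation, and of 14 genes tested 1 moved toward epithelium, the target Etv4 (-1.46, at most 4.54 CPM on average), while Fgfr1, Fgfr2 and Fgfr3, the receptors, had -0.07, 0.92 and -0.13. Notch maintains the dividing epithelium, and of 15 genes 2 moved toward epithelium. The ligand Dll1 stood at 0.792, 2.07 and 1.14 CPM in epithelium and 0.928, 1.03 and 1.01 in fiber at E14.5. The levels at P0.5 were 23.2, 21.3 and 23.6 in epithelium and 1.27, 1.6 and 1.26 in fiber. Of the 12 libraries, its P0.5 epithelium ones alone were above 3 CPM (log2 = -3.56 ± 0.58 SE, adjusted p = 3.43e-05). The receptor Notch3 fell in fiber from 46.7, 47.7 and 51.1 to 20.8, 21.7 and 22.1 CPM (log2 = -1.1 ± 0.11 SE, adjusted p = 7.67e-08). Jag1, the ligand of fiber cells, had -0.13. Of 20 Wnt genes 2 moved toward epithelium, the receptors Fzd2 and Lrp5 (-1.11). Of 18 genes of BMP and TGF-beta signalling 3 moved toward fiber and 1 toward epithelium. Those toward fiber were the ligand Bmp7, the inhibitor Smad6 (1.12) and the effector Smad1. Smad1 stood at 21.61, 23.3 and 21.9 CPM in epithelium and 13.9, 15.7 and 15.8 in fiber at E14.5. At P0.5 epithelium had 22.5, 21.8 and 20.5 and fiber 43.9, 44.6 and 61.7. Its P0.5 fiber libraries were the highest 3 of the 12 (log2 = 1.78 ± 0.15 SE, adjusted p = 7.03e-09). The 1 toward epithelium was the ligand Bmp4, which rose in epithelium from 1.11, 0.759 and 0.48 to 45.8, 36.5 and 26 CPM (log2 = -4.18 ± 1.597 SE, adjusted p = 0.0404). The medians of the FGF, Notch, Wnt and BMP lists were 0.04, -0.39, -0.57 and -0.31.

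Glycolysis and hypoxia genes, 20 of 21 tested, had 7 moving toward fiber and 2 toward epithelium and a median of 0.65, but with library size alone 1 and 4 with a median of 0.01, and with crystallins left out 3 and 3 with a median of 0.39. Aldoa, aldolase A, stood at 237, 233 and 279 CPM in epithelium and 267, 250.4 and 233 in fiber at E14.5. The P0.5 values were 229.8, 187 and 153 in epithelium and 738, 624 and 516 in fiber. The tissues overlapped at E14.5 and fiber was higher at P0.5 (log2 = 1.72 ± 0.17 SE, adjusted p = 4.95e-08), and it stayed called under each scaling. Pfkl and Pkm had 1.24 and 1.16, and the pyruvate dehydrogenase kinase Pdk1 had 1.54. Tpi1 and Pgam1 had 1.05 and 1.08, the latter 0.91 without P0.5 fiber replicate 2. The 2 toward epithelium were Pfkp, the platelet form of phosphofructokinase (-1.59), and the oxygen-sensing factor Hif1a (-1.03). Gapdh had -0.84 and was not called.

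Of 20 subunits of oxidative phosphorylation 2 moved toward fiber, Ndufa1 of complex I (log2 = 1.82 ± 0.17 SE, adjusted p = 2.12e-08) and Cox5a of complex IV (1.16), with a median of 0.55 that was -0.09 with library size alone. None of 22 ribosomal protein genes was called (median 0.55, and -0.09 with library size alone), although 2 were called toward fiber with DESeq2's size factors. Nor was any of 19 cholesterol synthesis genes (0.18) or 18 chromatin remodelers (0.06), of which 2 each were called toward epithelium with library size alone, and 1 remodeler with crystallins left out. Of 20 antioxidant genes 1 moved each way, beside 3.77% toward fiber and 7.92% toward epithelium of all genes. Their median was 0.27 (-0.37 with library size alone). Hmox1, heme oxygenase 1, stood at 4.43, 5.11 and 5.76 CPM in epithelium and 50.1, 65.2 and 53.1 in fiber at E14.5. By P0.5 epithelium stood at 6.89, 10.3 and 5.79 and fiber at 481, 485 and 331. Its fiber excess widened (log2 = 2.39 ± 0.33 SE, adjusted p = 4.27e-06), and Gsta4, a glutathione transferase, gained an epithelial one (-1.56).

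Of 21 autophagy and organelle loss genes 2 moved toward fiber, the phospholipase Pla2g7 (1.34) and Bnip3, and 1 toward epithelium, the lysosomal factor Tfeb (-1.48). Over all genes 3.77% moved toward fiber and 7.92% toward epithelium, which is also the scale for the other lists of this paragraph. Bnip3, a receptor for the removal of mitochondria, stood at 11.6, 14.1 and 15.4 CPM in epithelium and 25.7, 24.5 and 21.8 in fiber at E14.5. P0.5 epithelium had 10.1, 9.1 and 7.67 and P0.5 fiber 73.6, 64.9 and 53.3. The P0.5 fiber libraries were above the other 9 (log2 = 2.03 ± 0.20 SE, adjusted p = 3.25e-08). Dnase2b, the enzyme that degrades fiber nuclei, had 0.78 and was not called. Of 11 imprinted growth genes 1 moved toward fiber, Peg10, and 3 toward epithelium: Igf2, which fell in fiber from 2545, 2473 and 2415 to 353, 376 and 339 CPM and in epithelium from 362, 288 and 412 to 162, 126 and 131 CPM (log2 = -1.46 ± 0.25 SE, adjusted p = 7.22e-05), Plagl1 (-1.05) and Grb10 (-1.01). Of 14 immediate early genes Nr4a1 moved toward fiber (1.89) and Ier2 toward epithelium (-1.1).

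**Figure D5:**
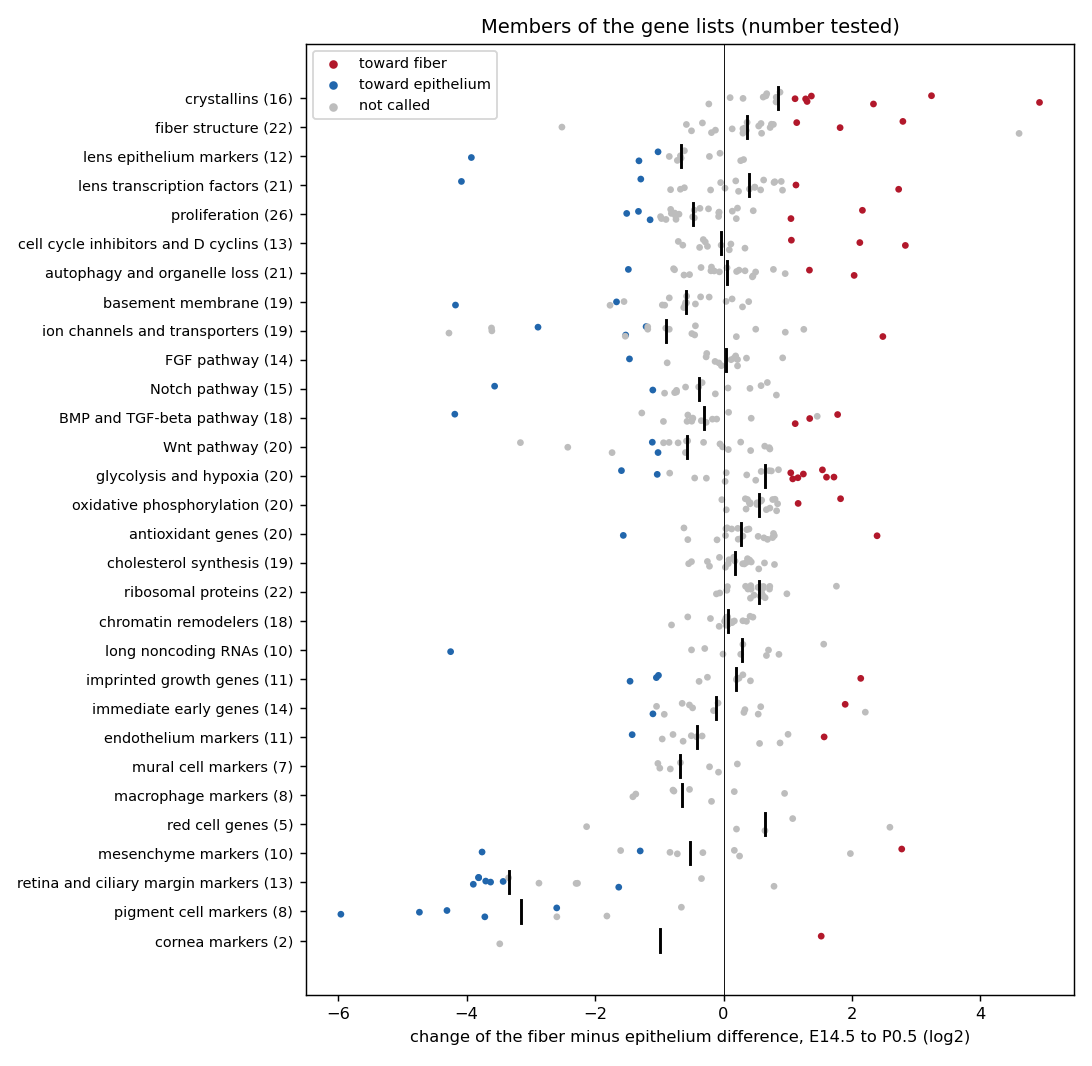
Interaction log2 of each tested member of 30 gene lists, 1 row per list with the number tested; red points moved toward fiber, blue toward epithelium, grey were not called, and the black bar is the median. The retina and ciliary margin and the pigment lists have the lowest medians (-3.35 and -3.16) and the crystallins the highest (0.85).

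Markers of other cell types that the dissection could carry were also counted. Of 11 endothelium markers 1 moved each way, Pecam1 (1.57) and Tek, an angiopoietin receptor that fell in fiber from 22.9, 20.9 and 21.5 to 8.36, 8.3 and 8.92 CPM (log2 = -1.42 ± 0.14 SE, adjusted p = 5.05e-08), and the list's sum in epithelium was 439 to 512 CPM at E14.5 and 310 to 385 at P0.5. The interaction of no mural (7 tested), macrophage (8) or red cell gene (5) was called. The mural sum in epithelium was 106 to 145 CPM at E14.5, 143 to 173 at E16.5, 293 to 346 at E18.5 and 313 to 347 at P0.5, with its step at the same interval as the ciliary margin and pigment sums. All 5 red cell genes fell in both tissues, and their sum went from 194 to 296 CPM to 2.81 to 4.7 CPM in epithelium and from 24.4 to 37.4 CPM to 0.315 to 1.44 CPM in fiber. Of 10 mesenchyme markers Foxc1, a factor of periocular mesenchyme, moved toward fiber (2.77) and Col5a1 (-1.3) and Postn (-3.76) toward epithelium, and the sum in epithelium was 760 to 861 CPM at E14.5 and 519 to 572 at P0.5. Of 2 cornea markers tested Perp, a desmosomal protein, moved toward fiber (1.52). The part of these cells in the results above was not tested.

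Several list members sat close to the thresholds. Leaving out 1 of the 12 libraries ended the call of 21 genes, 7 of them for 1 library each, which are given above beside the gene. Lrp5 was not called without E14.5 fiber replicate 3 or P0.5 fiber replicate 1 (-0.96 for both). Ccng1 lost its call without E14.5 epithelium replicate 2, P0.5 epithelium replicate 1 or P0.5 fiber replicate 3 (0.92 to 0.999), and Aurka without E14.5 fiber replicate 2, P0.5 epithelium replicate 1 or P0.5 fiber replicate 2 (0.84 to 0.97). Smad6 lost it without E14.5 epithelium replicate 3, E14.5 fiber replicate 2 or P0.5 fiber replicate 3 (0.89 to 0.99), and Hif1a without E14.5 epithelium replicate 3, E14.5 fiber replicate 1 or P0.5 fiber replicate 2 (-0.99 to -0.94). For Pecam1 the libraries were E14.5 fiber replicates 1 and 3 and P0.5 fiber replicate 2 (1.27 to 1.48, adjusted p up to 0.0755). For Rrm2 they were replicates 1 and 3 of both fiber groups (-1.26 to -1.06, adjusted p up to 0.0995), and for Plagl1 E14.5 fiber replicate 1, P0.5 epithelium replicate 2 and P0.5 fiber replicates 1 and 3 (-0.999 to -0.86). Tpi1 lost its call for 5 libraries (0.91 to 0.999), Rcvrn for 5 (-1.52 to -1.29, adjusted p up to 0.1001), Fzd2 for 6 (-0.999 to -0.82), Grb10 for 6 (-0.99 to -0.91), Ier2 for 6 (-1.16 to -0.88, adjusted p up to 0.1003) and Bmp4 for 7 (-4.31 to -3.90, adjusted p up to 0.118).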

How the data were processed

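The authors deposited a table of whole-number counts per gene for 24 libraries of CD1 mouse lens. Build mm10, HTSeq 0.6.1, Cufflinks 2.2.1, Cuffdiff, TopHat2 2.0.13 and Trim Galore 0.4.1 are named in the submitters' processing notes, without their roles, and how the table's 12611 genes were chosen and the strand setting are not given in the sources used here. Of the symbols, 97.9% matched 1 GENCODE M21 gene. Counts were fitted with edgeR 4.0.16 (R 4.3.3, limma 3.58.1): filterByExpr (minimum count 10, total 15; 184 genes removed), TMM, 8 group means over all 24 libraries with 16 residual degrees of freedom, glmQLFTest and Benjamini-Hochberg adjustment. Calls need an adjusted p under 0.05 and a log2 of at least 1. SE is the log2 divided by the root of F. DESeq2 1.42.0, other scalings and filters, a test against 2-fold, a replicate block and leaving out each library were the alternatives. The method was tested on simulated data.

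Named genes are the 10 largest each way with a mean of at least 50 CPM in 1 of the 4 groups, predicted, histone and small noncoding genes left out, the 5 largest of each class (turned: ranked by the smaller stage difference, at least 10 CPM), the 5 largest with opposite courses, and members of 30 gene lists. The members and lists were chosen with earlier results of these data known. Replicates of a group differed by more than counting noise (chi-square per degree of freedom at least 4.01). Intervals of counting are not given, and the depth per library stands in the text. The results of some genes are not reported here.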

Additional observations from a re-analysis of the deposited data

Results flagged for a closer look

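In these results the tissue effect took opposite signs at the 2 stages, with a called difference at each and a called interaction, which is the test of the change itself. It did so toward fiber in 6 genes and toward epithelium in 30. Of the genes named by rule, the interaction was 7.43 for Clic5, 4.76 for Tbc1d30 and 3.26 for Piezo2 toward fiber, and -7.01 for Cldn19, -6.08 for Prelp, -5.33 for Fam129a, -4.33 for Epb41l4b and -4.64 for Smpd3 toward epithelium. The interaction of each of these 8 genes remained called when each library was left out in turn. Whether each gene also kept its called differences at both stages, and so its turn, was not checked gene by gene.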

How the results depend on the processing

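Of 52 genes named by rule outside the lists, 47 stayed called in the same direction in each alternative run. With the called list members added, 70 of 121 did, and 0 of the 121 changed sign. Toward fiber 468 genes were called, with 283 grown, 128 shrunk, 6 turned and 116 between E16.5 and E18.5; toward epithelium these were 984, 705, 176, 30 and 541. Scaling by library size alone gave 138 toward fiber, with 50 grown, 62 shrunk and 48 between E16.5 and E18.5, and 3260 toward epithelium, with 2822 grown and 1141 between E16.5 and E18.5. Library size without the crystallin counts, with no TMM factors, gave 269, 129 grown and 54 toward fiber, and 1490 and 1153 grown toward epithelium. A test against 2-fold gave 147, 97 grown, 32 shrunk, 1 turned and 18 toward fiber, and 272, 185, 56, 13 and 147 toward epithelium. An adjusted p alone, with no fold minimum, gave 2558, 1797, 569, 187 and 1138 toward fiber, and 2656, 1685, 774, 186 and 1017 toward epithelium. Leaving out 1 of the 12 libraries of E14.5 and P0.5 gave 426 to 500 and 869 to 1003 calls, 255 to 301 and 604 to 714 grown, 113 to 139 and 162 to 180 shrunk and 5 to 7 and 26 to 35 turned. Leaving out 1 of the 12 libraries of E16.5 and E18.5, chosen after seeing the data, gave 112 to 136 and 473 to 604 calls between those stages. The cause of these changes was not tested, apart from the 2-fold test and the missing fold minimum, which change the threshold itself. Without E18.5 fiber replicate 2, which had the largest share of the ribosomal precursor Rn45s (28.9%), there were 113 and 521 calls between E16.5 and E18.5.

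The replicate numbers are shared by the groups. Same-numbered epithelium and fiber libraries of a stage had deviations correlated at -0.07 to 0.22, not every one above 0.1, and not every library correlated best with its own number, so the numbers were not taken to pair samples. With the number as a replicate block 1438 genes were called, 1423 of them among the 1452 (98.0%). Of the 121 genes checked, the block ended the call of Bmp4 (-4.16, adjusted p = 0.052). Genes with under 10 reads in a group, such as Clic5 in E14.5 fiber, have sizes limited by depth.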
